A study of Mus musculus with 3 samples.

Results

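The clustered protocadherins are cell-surface adhesion proteins encoded by 3 neighbouring gene clusters, Pcdha, Pcdhb and Pcdhg. Members were taken as the protein-coding genes whose symbol is Pcdha, Pcdhac, Pcdhb, Pcdhga, Pcdhgb or Pcdhgc followed by a number. The rule found 57 of the 54232 gene identifiers in each count table, with 14 in Pcdha, 22 in Pcdhb and 21 in Pcdhg. It used names and gene class only, and no measured value.

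RNA-seq read counts were available for 3 libraries, 1 per group and each labelled repeat 3, of wildtype CD1 mouse cortical neurons in culture. In the IKVAV PA group the neurons grew on an amphiphile carrying IKVAV, a peptide of laminin, of the kind that assembles into fibres. The IKVAV PA + PEDOT-S library had a further component that its title calls PS2 and its library name PEDOT-S_OH, taken here to be the conducting polymer PEDOT-S. The control library is named PDL, which the labels do not spell out. The treatment field reads Peptide amphiphile for all 3 libraries, the control included, so groups were taken from titles and library names. The labels give neither the age of the cells, nor the time in culture, nor how many animals or cultures a library holds. The series asks whether conductive and bioactive scaffolds promote neuronal maturation, which sets each scaffold against PDL and the scaffolds against each other. All 3 comparisons draw on the same libraries, so they are not independent of each other.

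Clustered protocadherins are known for giving each neuron its own surface identity. In most neurons a small set of variable exons is chosen at random, each from its own promoter, through DNA loops made by CTCF and cohesin. The proteins bind like to like between membranes, which lets the branches of a neuron recognise and avoid each other. In Pcdha and Pcdhg each variable exon is spliced to constant exons that encode a common cytoplasmic end, whereas each Pcdhb gene is a coding exon of its own. The C-type members (Pcdhac1, Pcdhac2, Pcdhgc3, Pcdhgc4 and Pcdhgc5) stand at the ends of their clusters and are used more uniformly between neurons than the others.

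On GRCm38, with GENCODE M21 gene models, all members lie on the plus strand of chromosome 18. Pcdha spans 36930184 to 37187661, Pcdhb spans 37264938 to 37524479 and Pcdhg spans 37661793 to 37841873. The IKVAV PA library held 124425958 counts, IKVAV PA + PEDOT-S 79057998 and PDL 78993105. A gene was tested when it reached at least 1 CPM (counts scaled to a common library size) in at least 1 library, which 13884 genes and 53 of the 57 members did. The neuronal label was checked with 6 markers, all of which passed this filter, with a summed level of 7169 CPM in IKVAV PA, 7022 in IKVAV PA + PEDOT-S and 7018 in PDL. Markers of other cells were also present. The 6 radial glia and progenitor markers summed to 203, 234 and 434 CPM in the same order of libraries, with 5 of the 6 tested. The 5 dividing cell markers, all tested, summed to 58.5, 58.3 and 129 CPM. The 8 astrocyte markers, 7 of them tested, summed to 199, 200 and 264 CPM. The 7 fibroblast and mural markers, 6 of them tested, summed to 52.8, 23.7 and 136 CPM. The 9 oligodendrocyte lineage markers, all tested, summed to 77.1, 102 and 102 CPM. The 4 glutamatergic markers summed to 804, 800 and 738 CPM and the 3 GABAergic markers to 456, 442 and 524 CPM. Past 1.5-fold by their counting intervals, 3 progenitor markers (Vim, Fabp7 and Nes) were lower in each scaffold library than in PDL. So were 4 dividing cell markers (among them Mki67 and Top2a). Of the astrocyte markers, 5 were lower in IKVAV PA, and 3 lower and 1 higher in IKVAV PA + PEDOT-S. Slc1a2 made most of the astrocyte sum, at 161, 153 and 169 CPM. Fibroblast and mural markers gave 4 lower in IKVAV PA and 6 in IKVAV PA + PEDOT-S. In that order, oligodendrocyte lineage markers gave 2 higher and 3 lower, and 4 higher and 3 lower. Endothelial Flt1 was lower in IKVAV PA + PEDOT-S. Over all 13884 genes tested, 475 and 522 were lower and 75 and 62 higher. Serotonergic, endothelial and microglial lists each summed to at most 2.64 CPM in any library, and no listed marker was at 0 in all 3 libraries.

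Members of Pcdha and Pcdhg share exons with their neighbours, and the tables hold 1 count per gene, so the exonic bases that belong to no other annotated gene decide how much of a member can be read. A median of 46.4% of the exonic bases of a Pcdha member was unshared on either strand, against 54.8% in Pcdhg and 100% in Pcdhb, where 19 of 22 members shared none. The lowest share in each cluster was 7.004% for Pcdha4, 36.5% for Pcdhb12 and 0% for Pcdhga10. Pcdhga10 has 2613 bases that are free of genes on its own strand, but an annotated gene on the opposite strand covers all of them.

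**Figure D1:**
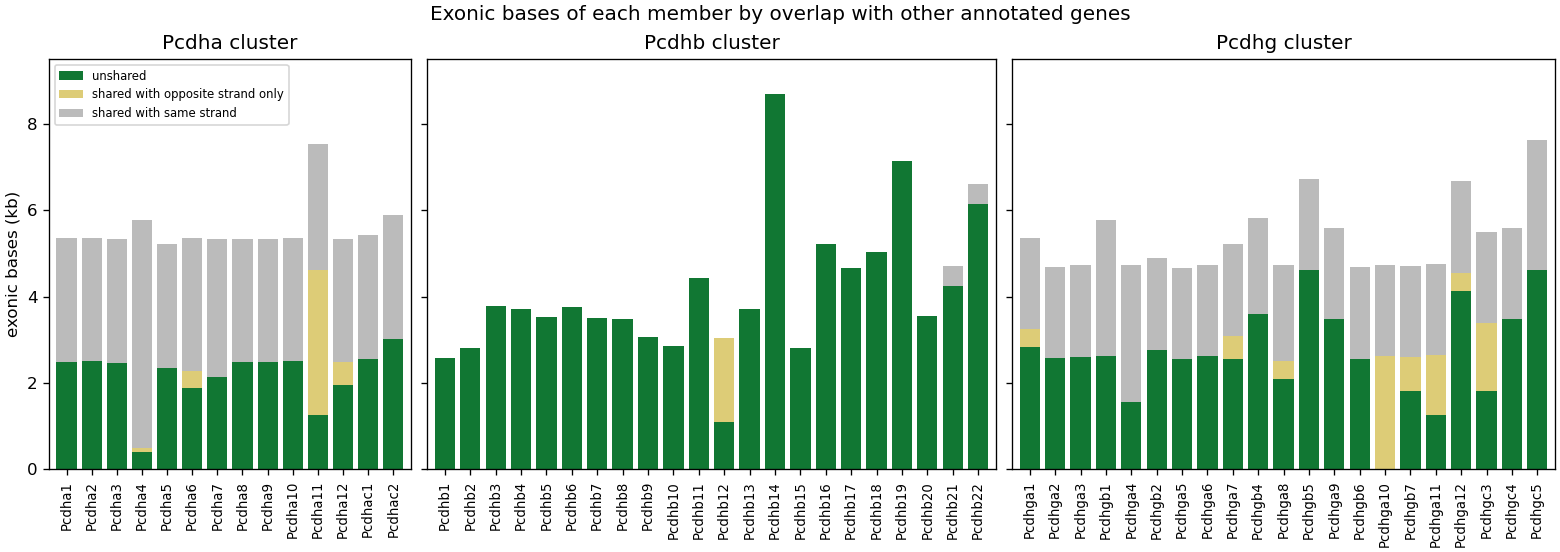
Exonic bases of each member in kilobases (vertical axis), with members in genome order along the horizontal axis, split into unshared bases, bases shared only with a gene on the opposite strand and bases shared with a gene on the same strand. Every Pcdha and Pcdhg bar holds a grey part, shared on the same strand, the Pcdhb bars are largely unshared, and Pcdhga10 has no unshared base.

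The 4 members below the filter were Pcdha4, Pcdha11, Pcdhb1 and Pcdhga10. Pcdhga10, a gamma A member, had 0 counts in all 3 libraries. Of the 1218 annotated genes with no unshared exonic base on either strand, 1205 (98.9%) had 0 counts in all 3 libraries, against 3567 (16.9%) of the 21149 protein-coding genes with at least 500 unshared bases. Where only an opposite-strand gene removed the last unshared bases, 469 of 475 genes (98.7%) were at 0. The value of 0 for Pcdhga10 therefore gives no level of this gene, and it is not read as a lack of its RNA. Pcdha4 had 19 counts in IKVAV PA, 4 in IKVAV PA + PEDOT-S and 14 in PDL. None of its coding bases is unshared, since longer gene models run through its exon. Pcdha11 had 16, 2 and 0 counts in the same order, with 54 unshared coding bases left beside an opposite-strand gene. A count of 0 in PDL allows up to 3 counts, or 0.0377 CPM. Pcdhb1 had 76, 35 and 32 counts, and its 2588 exonic bases are all unshared. Its 0.610, 0.447 and 0.402 CPM were therefore low without any loss to overlap, unlike the other 3.

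Symbols are not fully unique in these clusters. The annotation gives Pcdha11 to 2 identifiers, of which ENSMUSG00000007440 starts 117 bases from RefSeq's Pcdha10 and is called Pcdha10 here. The other, ENSMUSG00000102206, starts 146 bases from RefSeq's Pcdha11 and kept that name. Pcdhgb8 is classed as a polymorphic pseudogene and fell outside the rule, with 132 counts in IKVAV PA, 112 in IKVAV PA + PEDOT-S and 85 in PDL. Of the 23 other annotated genes within the cluster spans, 12 lie on the minus strand, and BC037039 and Pcdhgb8 were the 2 that passed the filter.

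Together the members took 111426 counts in IKVAV PA, 70841 in IKVAV PA + PEDOT-S and 71890 in PDL. These sums equal 0.0896%, 0.0896% and 0.0910% of each library. Pcdhb gave the most counts of the 3 clusters, with 356 CPM in IKVAV PA, 352 in IKVAV PA + PEDOT-S and 353 in PDL. Pcdhg gave 336, 344 and 347 CPM, and Pcdha 203, 209 and 203 CPM. These are sums of counts, not levels per length, and genes without an unshared base were nearly all at 0, so reads in the shared constant exons may be missing from the Pcdha and Pcdhg sums.

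Within each cluster, levels were compared as CPM per kilobase (kb) of unshared exon, which takes reads in shared exons as not counted for a member. C-type members led both clusters that have them. Pcdhac2, the C-type alpha protein needed for the even spacing of serotonergic axons, stood at 21.1 CPM per kb in IKVAV PA, 20.5 in IKVAV PA + PEDOT-S and 20.9 in PDL. It supplied 31.5%, 29.6% and 31.2% of all Pcdha counts. Pcdhgc3, known for promoting dendrite branching in cortical neurons, stood at 21.7, 24.4 and 24.4 CPM per kb. Pcdhgc4, the gamma member on which neuronal survival depends, stood at 11.5, 10.5 and 10.7 CPM per kb. The other C-type members were near the bottom of their clusters. Pcdhac1 stood at 0.483 CPM per kb in IKVAV PA, 0.419 in IKVAV PA + PEDOT-S and 0.476 in PDL. Pcdhgc5, which appears late in the developing brain, stood at 1.143, 1.079 and 1.374 CPM per kb, the lowest tested gamma member in each library. C-type members thus lay at the top of both clusters and, with Pcdhac1 and Pcdhgc5, at or near the bottom.

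Among the 10 alternate alpha members tested, Pcdha12 was the highest per unshared kb, with 12.6 CPM per kb in IKVAV PA, 13.2 in IKVAV PA + PEDOT-S and 11.6 in PDL. Pcdha3 followed with 10.3, 11.1 and 10.4 CPM per kb, and Pcdha5 with 9.74, 10.2 and 9.73. Pcdha8 was the lowest of them, with 0.473, 0.485 and 0.451 CPM per kb. Over the 12 tested Pcdha members, C-type included, the highest level was 44.6 times the lowest in IKVAV PA, 48.8 times in IKVAV PA + PEDOT-S and 46.3 times in PDL.

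The tested Pcdhb members were closer to each other, with the highest 5.33, 6.47 and 5.41 times the lowest in the same order of libraries. This range leaves out Pcdhb1, which was below the filter at 0.236, 0.173 and 0.155 CPM per kb. With Pcdhb1 the beta range is far wider, so the narrow spread holds for the tested members only. Pcdhb17 led with 7.71 CPM per kb in IKVAV PA, 8.20 in IKVAV PA + PEDOT-S and 7.66 in PDL. Pcdhb20 had 6.90, 6.86 and 6.67 CPM per kb, and Pcdhb7 had 6.52, 7.10 and 6.15. Pcdhb9 had 6.16, 6.17 and 6.33 CPM per kb. At the low end of the tested members, Pcdhb14 had 1.45, 1.27 and 1.42 CPM per kb and Pcdhb13 had 1.66, 1.55 and 1.64. In each library these beta genes kept to their end of the range.

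In Pcdhg, the members behind Pcdhgc3 included Pcdhga11, with 11.2 CPM per kb in IKVAV PA, 11.6 in IKVAV PA + PEDOT-S and 10.2 in PDL. Its level rests on 1256 unshared bases. Pcdhga3 had 10.4, 9.98 and 11.2 CPM per kb. Pcdhga5, the lowest tested gamma A member, had 1.74, 1.56 and 1.79 CPM per kb. The median level was 5.61 CPM per kb in IKVAV PA, 5.53 in IKVAV PA + PEDOT-S and 6.001 in PDL for Pcdhg, against 3.46, 3.38 and 3.46 for Pcdhb and 5.31, 5.80 and 5.62 for Pcdha. The medians are over the members that passed the filter, so the 4 others are not in them. The order of the clusters rests on this choice of length. Over all exonic bases the medians of the mean level were 2.53 CPM per kb for Pcdha, 2.90 for Pcdhg and 3.40 for Pcdhb, which then was the highest. By that length Pcdha3 stood above Pcdha12, with means of 4.91 and 4.54 CPM per kb, and Pcdhga11, at 2.91, was no longer among the 4 highest gamma members.

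**Figure D2:**
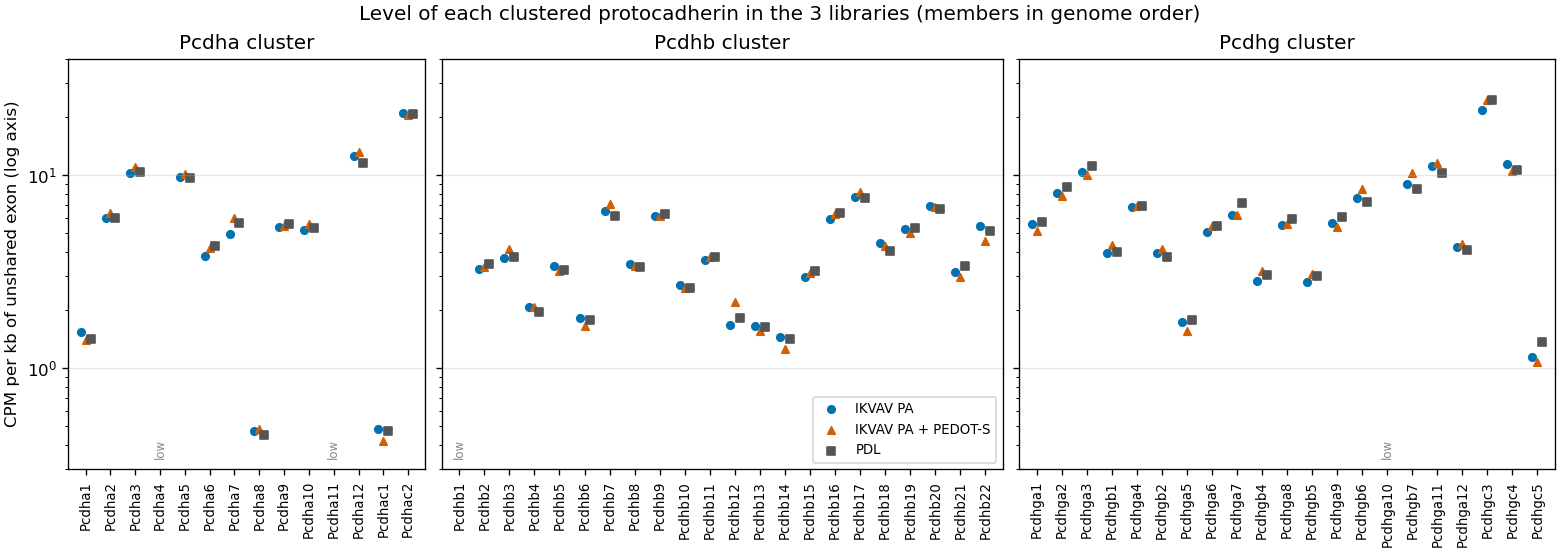
Level of each clustered protocadherin in CPM per kilobase of unshared exon (vertical log axis), members in genome order along the horizontal axis, with 1 symbol per library; "low" marks the 4 members below the filter. The 3 symbols of a member lie close together while members differ widely, from Pcdha8 and Pcdhac1 under 0.5 to Pcdhac2 and Pcdhgc3 above 20 CPM per kb.

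The order of the members by this level was much the same in the 3 libraries. Of the 12 Pcdha members tested, 7 held the same rank in all 3 libraries, as did 5 of 21 in Pcdhb and 6 of 20 in Pcdhg. No member moved by more than 3 places within its cluster. Across the 53 members, Spearman's rho of levels was 0.994 between IKVAV PA and PDL, 0.989 between IKVAV PA + PEDOT-S and PDL and 0.989 between the scaffolds. This describes the libraries only, since members share a locus, the same unshared lengths enter both sides and genes are not replicates.

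The variable exons also resemble each other in sequence. In 50-base windows along the first exon of the longest coding transcript, 12 of 14 Pcdha members shared windows with another member, with a median of 14.7% and a maximum of 23.4% in Pcdha7, whose closest match was Pcdha8. Both Pcdhac1 and Pcdhac2 shared none. In Pcdhb 21 of 22 members shared windows, with a median of 4.26% and a maximum of 11.99% in Pcdhb12. In Pcdhg 14 of 21 did, with a median of 0.601% and a maximum of 17.2% in Pcdhgb2, which matched Pcdhgb1. How far such sharing affected the counts of a member was not tested. The first exons also differed in base composition, with median GC contents of 53.1% in Pcdha, 46.0% in Pcdhb and 52.6% in Pcdhg.

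Between libraries, a gene was called higher or lower when the bound of its 95% counting interval nearest to no difference lay past 1.5-fold. With 1 library per group there is no replicate check, no test and no p-value, and the intervals cover counting error only. Groups are also bulk cultures, in which fewer cells of a type and less RNA per cell cannot be told apart.

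No member was called between IKVAV PA and PDL, 0 of 53, where 3.96% of the 13884 genes tested were called. No member was called between IKVAV PA + PEDOT-S and PDL, where 4.21% of genes were, nor between the scaffolds, where 2.35% were. At these shares a list of 53 average genes would hold few calls, so the zeros do not set the members apart from other genes. Of the 53 members, 52 lay within 1.2-fold for IKVAV PA over PDL, as did 11051 of the 13884 genes tested. For IKVAV PA + PEDOT-S over PDL 50 members did, against 10749 genes, and between the scaffolds 51 did, against 11094 genes. The median size of the log2 ratio was 0.07 over members and 0.10 over all genes for IKVAV PA over PDL. It was 0.09 against 0.12 in both comparisons with the IKVAV PA + PEDOT-S library. The signed median of the members was -0.01, -0.00 and 0.02 in the order IKVAV PA over PDL, IKVAV PA + PEDOT-S over PDL, and IKVAV PA + PEDOT-S over IKVAV PA. Over all genes it was 0.00, -0.00 and 0.01.

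**Figure D3:**
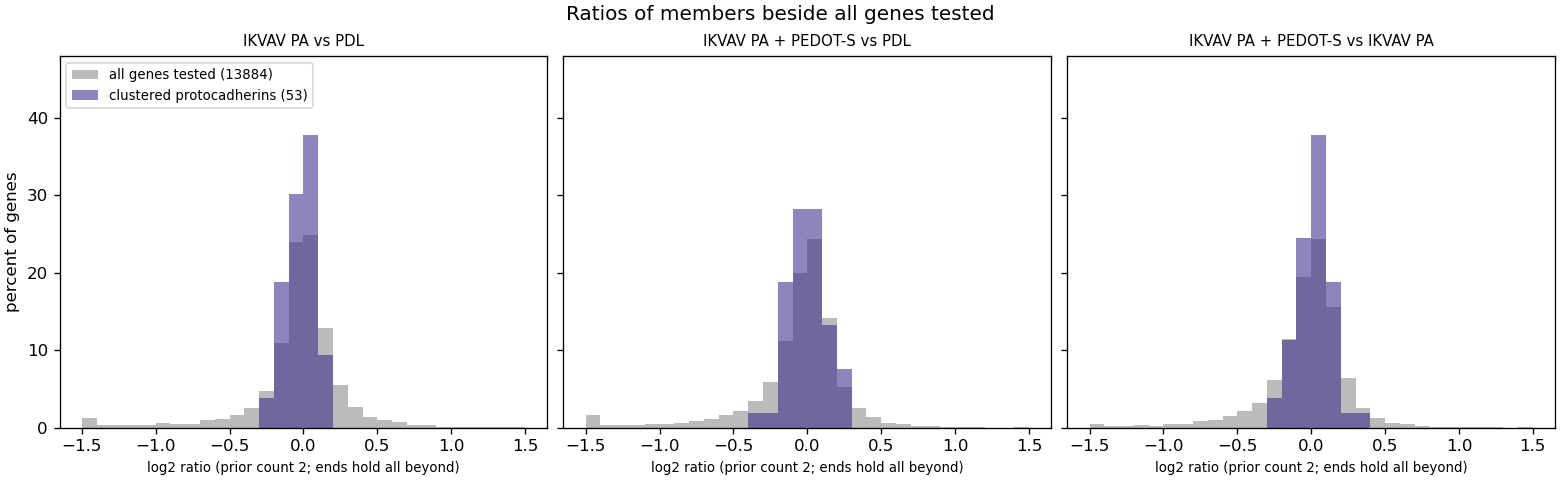
Distribution of log2 ratios (horizontal axis, prior count 2, end bins holding everything beyond) as percent of genes (vertical axis) for the 53 members and all 13884 genes tested, in the 3 comparisons. The members lie between -0.35 and 0.40, and the long lower tail of all genes against PDL holds none of them.

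The cluster sums were close in all comparisons. For IKVAV PA over PDL, the log2 ratio of summed counts was -0.00 for Pcdha (95% counting interval -0.03 to 0.03), 0.01 for Pcdhb (-0.01 to 0.03) and -0.05 for Pcdhg (-0.07 to -0.02). For IKVAV PA + PEDOT-S over PDL it was 0.05 for Pcdha (0.01 to 0.08), -0.00 for Pcdhb (-0.03 to 0.02) and -0.01 for Pcdhg (-0.04 to 0.01). Between the scaffolds, IKVAV PA + PEDOT-S over IKVAV PA, it was 0.05 for Pcdha (0.02 to 0.08), -0.01 for Pcdhb (-0.04 to 0.01) and 0.03 for Pcdhg (0.01 to 0.06). With DESeq2 size factors the sign turned for Pcdhb between the scaffolds (0.01) and for Pcdhb (0.02) and Pcdhg (0.01) of IKVAV PA + PEDOT-S relative to PDL, and the near-zero Pcdha value of IKVAV PA relative to PDL turned to 0.01 when scaled on protein-coding genes alone. As folds these sums lay between 0.968 and 1.03. The astrocyte, progenitor, dividing cell and fibroblast marker sums given above were lower in both scaffold libraries than in PDL, and their part in the cluster sums was not tested.

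The counting interval excluded no difference for 14 members between IKVAV PA and PDL, which is 26.4% of members against 57.0% of all genes tested. Of these 5 were higher and 9 lower in IKVAV PA, where 28.0% of genes were higher and 28.9% lower. For IKVAV PA + PEDOT-S over PDL it did so for 18 members (34.0%), against 57.1% of genes, with 8 members higher and 10 lower against 28.6% and 28.5% of genes. Between the scaffolds it did so for 18 members, against 59.9% of genes, with 13 members higher and 5 lower in IKVAV PA + PEDOT-S against 31.4% and 28.5% of genes. Members had fewer counts than the average gene, with a median of 1136 in PDL against 1912 over all genes tested, which widens their intervals. The split depends on scaling. DESeq2 size factors gave 13 higher and 9 lower members for IKVAV PA + PEDOT-S over PDL and 19 and 3 between the scaffolds. The intervals of 58.1% and 61.5% of all genes then excluded no difference, and the median log2 ratio of all genes moved to 0.02 and 0.04. Total counts gave 5 and 10, and 11 and 7, beside 56.6% and 59.2% of all genes and medians of -0.03 and -0.01.

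**Figure D4:**
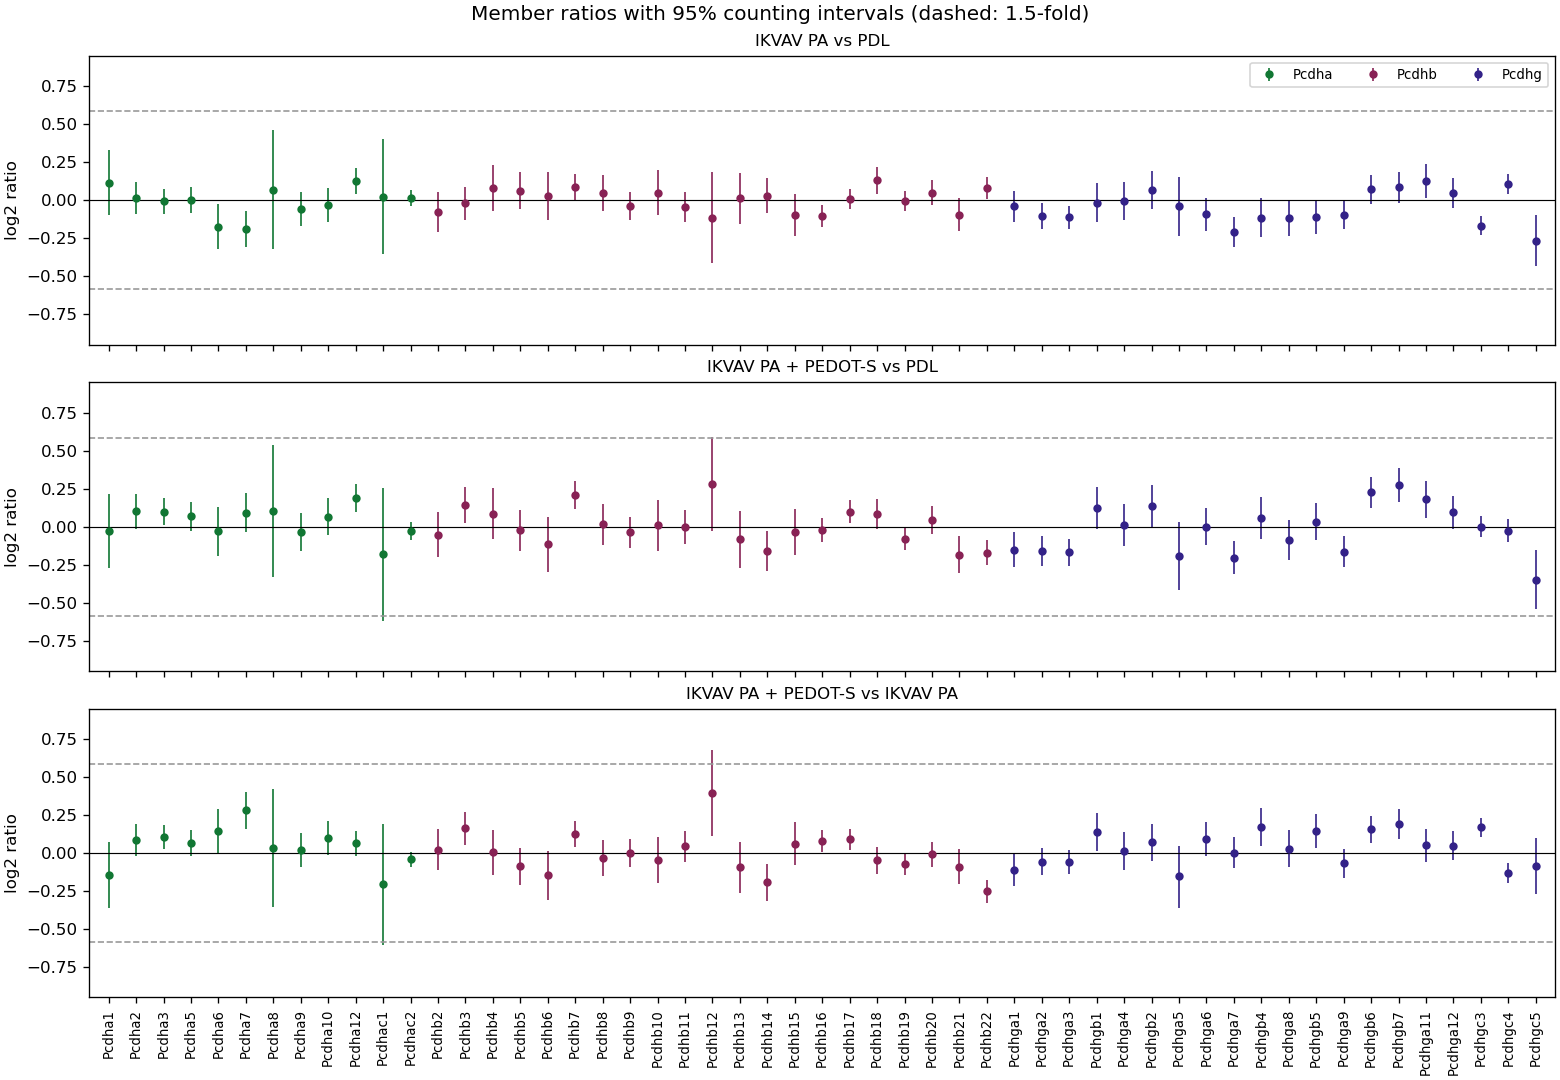
Log2 ratio of each tested member (vertical axis) with its 95% counting interval (bars), members in genome order along the horizontal axis, for the 3 comparisons; dashed lines mark 1.5-fold. Every point lies inside the dashed lines, and Pcdhgc5 is the lowest point in both comparisons with PDL.

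Among the C-type members, Pcdhgc5 had the lowest ratio of all tested members against PDL. It had 656 counts in IKVAV PA, 389 in IKVAV PA + PEDOT-S and 504 in PDL, or 5.26, 4.97 and 6.33 CPM. PDL was thus the highest of the 3 libraries and the scaffolds lay close to each other. The log2 ratio was -0.27 for IKVAV PA over PDL (interval -0.44 to -0.10) and -0.35 for IKVAV PA + PEDOT-S over PDL (-0.54 to -0.15). Both share the PDL library, so the second is no repeat of the first. Pcdhgc3 differed in another way, with 39.6 CPM in IKVAV PA, 44.5 in IKVAV PA + PEDOT-S and 44.5 in PDL. Its log2 ratio was -0.17 for IKVAV PA over PDL (-0.23 to -0.11) and 0.00 for IKVAV PA + PEDOT-S over PDL (-0.07 to 0.07). Pcdhgc4 was highest in IKVAV PA, with 39.9 CPM against 36.4 in IKVAV PA + PEDOT-S and 37.1 in PDL. Its log2 ratio was 0.10 for IKVAV PA over PDL (0.04 to 0.17) and -0.13 between the scaffolds (-0.20 to -0.07). Pcdhac2 had 63.8, 62.0 and 63.2 CPM, and its interval included no difference in all 3 comparisons. Pcdhac1, at 154, 84 and 97 counts, had the lowest ratio of the tested alpha members for IKVAV PA + PEDOT-S over PDL, -0.18 (-0.62 to 0.25). It also had the lowest of them between the scaffolds, -0.20 (-0.60 to 0.19), and both intervals are wide. Progenitor and dividing cell markers were also lower in both scaffold libraries than in PDL, and their part in the values of Pcdhgc5 and the gamma A members that follow was not tested.

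In Pcdhg the A and B types, which alternate along the cluster, are described apart, and the difference between them was not tested. Of the 11 gamma A members tested, 9 had a ratio below 0 for IKVAV PA over PDL, with a median log2 ratio of -0.09, and 8 did for IKVAV PA + PEDOT-S over PDL, with a median of -0.15. Other scalings gave 8 or 9 and 7 to 9 of 11. Between the scaffolds 6 lay above and 5 below 0, and Pcdhga5 had the lowest gamma ratio, -0.15 (-0.36 to 0.05). Over all 13884 genes tested, 6937 and 7021 lay below 0 in the comparisons with PDL. Intervals below 0 relative to PDL were seen for 4 and 5 of the gamma A members, against 28.9% and 28.5% of genes. Pcdhga2, Pcdhga3, Pcdhga7 and Pcdhga9 were among these in both comparisons. Pcdhga7 had 16.0 CPM in each scaffold library and 18.5 CPM in PDL, a log2 ratio of -0.21 (-0.30 to -0.11) for IKVAV PA and -0.20 (-0.31 to -0.10) for IKVAV PA + PEDOT-S. Pcdhga11, which among the members has only Pcdhga12 between it and the C-type members, went the other way, with 14.0, 14.6 and 12.9 CPM. Its log2 ratio was 0.13 (0.02 to 0.24) for IKVAV PA over PDL and 0.18 (0.06 to 0.30) for IKVAV PA + PEDOT-S over PDL.

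All 6 gamma B members tested had a ratio above 0 for IKVAV PA + PEDOT-S over PDL, with a median of 0.13, and against IKVAV PA, with a median of 0.15. For IKVAV PA over PDL, 3 of the 6 lay above 0. Over all 13884 genes tested, 6863 lay above 0 for IKVAV PA + PEDOT-S over PDL, 7181 between the scaffolds and 6947 for IKVAV PA over PDL. The gamma B counts were also 6, 6 and 3 with DESeq2 size factors, with total counts and with protein-coding genes alone. The first exons of gamma B members share windows with other members, from 2.67% in Pcdhgb7 to 17.2% in Pcdhgb2. Gamma A members reach at most 4.25%, in Pcdhga8. The part of this sharing in the gamma B ratios was not tested. Pcdhgb7 had 16.3 CPM in IKVAV PA, 18.6 in IKVAV PA + PEDOT-S and 15.4 in PDL, with a log2 ratio of 0.28 (0.16 to 0.39) for IKVAV PA + PEDOT-S over PDL. Pcdhgb6 had 19.5, 21.7 and 18.5 CPM, with a log2 ratio of 0.23 (0.13 to 0.33) in that comparison. The other 4 gamma B members had intervals in that comparison that included no difference, where 28.6% of all genes tested had intervals above 0. With DESeq2 size factors 4 of the 6 intervals lay above 0, while the median log2 ratio of all genes moved from -0.00 to 0.02. Summed, the gamma B members were 1.11-fold higher in IKVAV PA + PEDOT-S than in PDL (log2 0.16, 0.11 to 0.21) and 1.11-fold higher than in IKVAV PA (log2 0.15, 0.10 to 0.19).

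Shares within the cluster do not depend on how libraries are scaled. Gamma B members took 23.9% of Pcdhg counts in IKVAV PA (exact binomial interval 23.5 to 24.3), 25.9% in IKVAV PA + PEDOT-S (25.3 to 26.4) and 23.001% in PDL (22.5 to 23.5). Gamma A members took 50.9%, 49.1% and 51.7%, and the C-type members 25.2%, 24.98% and 25.3%. In Pcdha, the C-type members took 32.1% in IKVAV PA, 30.2% in IKVAV PA + PEDOT-S and 31.8% in PDL. The differences in share were thus about 3 percentage points or less, with no replicate against which to set them.

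**Figure D5:**
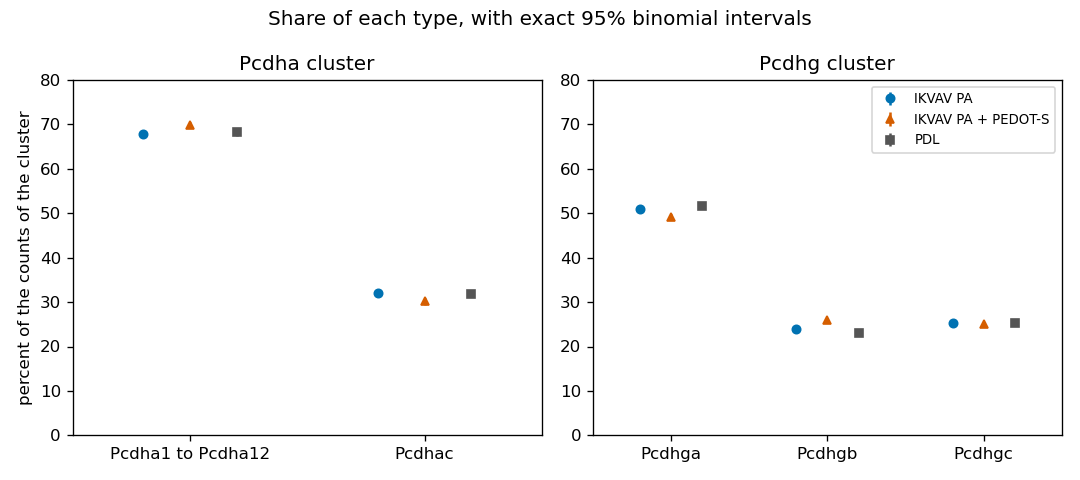
Percent of the counts of Pcdha (left) and Pcdhg (right) that each type of member took (vertical axis), by library, with exact 95% binomial intervals that are mostly smaller than the symbols. The gamma B share is highest in IKVAV PA + PEDOT-S at 25.9%, where the gamma A share is lowest at 49.1%.

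In Pcdha, Pcdha12 had the highest ratio of the tested members against PDL in both scaffold libraries. It had 24.5 CPM in IKVAV PA, 25.6 in IKVAV PA + PEDOT-S and 22.5 in PDL. Its log2 ratio was 0.12 (0.04 to 0.21) and 0.19 (0.10 to 0.28). Pcdha7 was lowest in the IKVAV PA library, with 10.6 CPM against 12.8 in IKVAV PA + PEDOT-S and 12.04 in PDL. Its log2 ratio was -0.19 (-0.31 to -0.07) for IKVAV PA over PDL and 0.28 (0.16 to 0.40) between the scaffolds. Pcdha7 is also the alpha member with the most windows shared with others.

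In Pcdhb, Pcdhb12 had the highest ratio of all members between the scaffolds, on few counts. It had 231 counts in IKVAV PA, 191 in IKVAV PA + PEDOT-S and 160 in PDL, or 1.85, 2.44 and 2.01 CPM. The log2 ratio was 0.40 (0.11 to 0.68) between the scaffolds, 0.28 (-0.03 to 0.59) for IKVAV PA + PEDOT-S over PDL and -0.12 (-0.41 to 0.18) for IKVAV PA over PDL. An opposite-strand gene covers most of its exon. Pcdhb22, with far more counts, had the lowest ratio of the tested members between the scaffolds, -0.25 (-0.33 to -0.18). It had 33.5 CPM in IKVAV PA, 28.1 in IKVAV PA + PEDOT-S and 31.6 in PDL. Its neighbour Pcdhb21, which overlaps it, had 13.4, 12.6 and 14.3 CPM, and a log2 ratio of -0.18 (-0.31 to -0.06) for IKVAV PA + PEDOT-S over PDL. Pcdhb18 had the highest ratio of the tested beta members for IKVAV PA over PDL, 0.13 (0.04 to 0.22), from 22.5, 21.7 and 20.5 CPM. In each comparison tested beta members lay on both sides of 0, with 12 above and 9 below for IKVAV PA over PDL. The numbers were 9 and 12 for IKVAV PA + PEDOT-S over PDL, and 10 and 11 between the scaffolds.

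Other genes of the pathway were read from lists chosen by function. The non-clustered protocadherins, relatives encoded outside these clusters, had 11 of 12 members tested, Pcdh12 being too low. For IKVAV PA over PDL, none was called and all 11 ratios lay below 0, with a median log2 ratio of -0.21. For IKVAV PA + PEDOT-S over PDL, Pcdh11x was called lower, 1 of 11, and 10 ratios lay below 0, with a median of -0.19. Between the scaffolds none was called and the median was 0.01. Over all 13884 genes tested, 6937 ratios lay below 0 for IKVAV PA over PDL and 7021 for IKVAV PA + PEDOT-S over PDL. In the latter 522 genes were called lower, and in either direction 3.96%, 4.21% and 2.35% of genes were called in the 3 comparisons. Pcdh11x had 86.8 CPM in IKVAV PA, 83.7 in IKVAV PA + PEDOT-S and 132 in PDL, a log2 ratio of -0.60 (-0.64 to -0.57) and -0.66 (-0.70 to -0.61) against PDL. Pcdh10, the highest of these relatives, had 240, 242 and 276 CPM, and Pcdh17 had 219, 230 and 239 CPM. In the same comparisons the medians of the clustered members were -0.01 and -0.00, and the difference between these groups of genes was not tested.

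The list of CTCF, cohesin and chromatin regulators of the clusters had 20 of 20 members tested and none called in any comparison. Its median log2 ratio was 0.04 for IKVAV PA over PDL, 0.01 for IKVAV PA + PEDOT-S over PDL and -0.01 between the scaffolds. Ctcf, which binds the promoters and the enhancers of the clusters, had 115 CPM in IKVAV PA, 123 in IKVAV PA + PEDOT-S and 112 in PDL. Trim28, a corepressor, had 303, 335 and 278 CPM. The list of cytoplasmic partners and processing enzymes also held the adhesion proteins Nlgn1 and Nlgn2. It had 21 of 21 tested and none called, with medians of 0.02, 0.01 and 0.02 in the same order. Marcks, a kinase substrate linked to dendrite branching downstream of gamma protocadherins, had the highest mean at 812, 850 and 699 CPM. Nlgn2, a postsynaptic adhesion protein, had the second highest mean at 560, 555 and 524 CPM, though Nckap1 lay above it in PDL at 528 CPM. Of 5 genes beside the clusters, 4 were tested and none was called, with medians of 0.03, 0.05 and 0.05. Zmat2 was the highest at 120, 129 and 118 CPM, followed by Hdac3 at 83.3, 85.7 and 81.2 CPM. Among the 13884 genes tested, the called shares were 3.96%, 4.21% and 2.35% in the same order of comparisons. At such shares lists as short as these would hold few calls, so the zeros do not set them apart from other genes.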

How the data were processed

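Gene-level RNA-seq was measured in 3 libraries, 1 per group. The deposited values are whole-number read counts per Ensembl gene, not normalised. Per the submitters' processing notes, cutadapt 4.2, STAR 2.7.5, HTSeq 2.0.2, DESeq2 1.14.1 and the mm10 build were used. Annotation release, strand setting and the handling of reads in overlapping genes are, for these libraries, not given in the sources used here. Per the labels' protocols a total RNA library kit was used, while the molecule field reads polyA RNA.

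Of 54232 identifiers, 54079 matched GENCODE M21, which gave symbols, coordinates and exonic overlap. Counts were scaled with TMM factors (edgeR 4.0.16, R 4.3.3) of 1.00 (IKVAV PA), 0.990 (IKVAV PA + PEDOT-S) and 1.01 (PDL). Ratios of scaled counts have exact (Clopper-Pearson) binomial 95% counting intervals. They were computed for every gene and tried on simulated counts with known folds. Those counts held counting error only, so the trial does not bear on differences between cultures. List medians used log2 ratios with a prior count of 2. Where a gene had 0 counts, 3 counts were taken as the limit. The reads carry no molecular identifiers, so intervals cover counting error only, and with 1 library per group no test was made.

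Named members are the C-type members, the 4 highest and 2 lowest per length in each cluster, those below the filter, and the highest and lowest ratio per cluster and comparison. Pcdhga2, Pcdhga3, Pcdhga7, Pcdhga9, Pcdhgb1, Pcdhgb2, Pcdhgb6, Ctcf and the other genes named besides were chosen after their values were seen. Members and lists were chosen with earlier results of these data known. Other settings tried were total counts, size factors of DESeq2 1.42.0, protein-coding genes alone, other filters, a 2-fold bound, thinned libraries, all exonic bases as the length, and sums without the most counted or the C-type members. Sequences of the members are not shown here. Some results that the naming rule covers are not reported here.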

Additional observations from a re-analysis of the deposited data

How the results depend on the processing

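Each cluster sum and count of called members was recomputed under the alternatives, and 80 values stayed within their counting interval or, for counts, within 1.5 times, though sums near 0 in 3 cluster comparisons changed sign within that interval. The other 10 moved. With no expression filter, 1 member was called between IKVAV PA and PDL, Pcdha11 with 16 against 0 counts, because it then entered the count. For IKVAV PA + PEDOT-S against PDL, the Pcdha sum moved from a log2 ratio of 0.05 to 0.08 without the most counted member (0.0784) and without the C-type members (0.0805). In that comparison total counts gave -0.03 for Pcdhb (-0.0300) and -0.04 for Pcdhg (-0.0397). Between the scaffolds, the Pcdha sum was 0.0752 with DESeq2 size factors, 0.0856 without the most counted member and 0.0879 without the C-type members. DESeq2 size factors gave 0.0141 for Pcdhb, whose sign turned, and 0.0621 for Pcdhg. These shifts follow from the factors or the members left out. Measured over all exonic bases, median levels were 2.53 CPM per kb for Pcdha and 2.90 for Pcdhg, and Pcdhb stayed at 3.40. No paired analysis was possible because each group has 1 library and the groups share a single replicate number. For the same reason no replicate could be left out. Depth limits Pcdha8, Pcdhac1 and Pcdhb12, whose intervals are the widest among the tested members.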
